A study of Mus musculus with 12 samples.

Results

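The 40 genes described here encode lysosomal glycosidases, sulfatases, lipid hydrolases, their activator proteins, other lumenal enzymes and proteins of the lysosomal membrane. They were taken by symbol from an expression table of 16971 genes, and all 40 were listed. The table comes from GFP(+) cells that were sorted by FACS from the nonparenchymal fraction of mouse liver. All mice were heterozygous *Prom1CreERT2-nLacZ/+;Rosa26Lsl-GFP/+* on a C57BL/6 background (the *Prom1* allele came from C57BL/6N mice and the *Rosa26* allele from C57BL/6J mice). They received tamoxifen as adults of 6 weeks, 7 days before surgery, so the day 0 mice carry the same alleles and had the same drug as the rest. Age and time since tamoxifen at sorting differ between the groups. Both sexes were used, with mostly females at day 0 and mostly males at BDL day 3 and BDL day 14. The CreERT2 is expressed from the *Prom1* locus, and GFP therefore marks any cell that expressed *Prom1* when tamoxifen was given, together with its progeny. Day 0 libraries (n = 3) are from sham surgery, and the other libraries were made 3 days (BDL day 3, n = 3) or 14 days (BDL day 14, n = 4) after the bile duct was ligated (BDL), a surgery that stops bile from leaving the liver. The labels list no sham library at 3 or 14 days. They describe 6 BDL day 14 libraries, and 2 of them, which are not named, do not enter the table.

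Lysosomes are acidic organelles in which a large set of hydrolases breaks down glycans, lipids, proteins and nucleic acids that arrive by endocytosis, phagocytosis and autophagy. Most lumenal hydrolases receive a mannose 6-phosphate tag in the Golgi and are carried to the lysosome by receptors that recognise it, while membrane proteins form the protective glycan coat and export the products. Many of these genes hold an E-box of the CLEAR type (CACGTG, often within TCACGTG) near their start, to which TFEB, TFE3 and MITF bind. In the liver, lysosomes are prominent in macrophages and in hepatocytes.

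Each gene has 1 value per group, the authors' mean of normalized read counts, and 1 count for its highest library, which the table does not name. A value for each library can therefore not be given. The table also lists the geometric mean over all 10 libraries. The wider the libraries of a group spread, the further this value lies under the geometric mean of the group means, and the within-group SD of each gene was derived from that gap on the assumption of 1 SD for all groups. Errors below are standard errors (SE) of a log2 ratio of 2 group means from this SD. A gene was called higher or lower past a fold of 1.5, and no p-value was computed. A stricter reading uses these values together, because for some genes no set of libraries with the listed means, highest count and geometric mean could let the groups overlap. These genes are described as having separate groups. Where 3 levels of a gene follow each other below, they are its group means in the order of the 3 time points. Read depth per library is unknown, and the group means summed over all genes were 922733, 843750 and 735604.

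The sequences of a few start regions show how differently the members carry the E-box. A RefSeq promoter window (GRCm38.p6, from 250 bases before to 50 bases after the start) was found for 34 of the 40 members. The letters CACGTG, searched on both strands, stood in the windows of 9 members (26.5%), against 11.7% of the 9782 kept genes with a window and 8.09% of all genes in the RefSeq table. The same 9 members held the longer TCACGTG, which 7.00% of the kept genes and 4.29% of all genes held, and every TCACGTG is also counted under CACGTG. The M-box letters TCATGTG were in 6 members (17.6%), against 2.76% of the kept genes. *Lamp1* had the most E-box matches, 4, and *Gla* had 2 of them around 1 M-box. These are shown with *Glb1* and *Gaa*, which had 1 match each and did not pass the fold threshold against day 0 at either time. All 4 stretches lie before the RefSeq start and read 5′ to 3′ on the strand of the gene, and capitals mark E-box or M-box letters.

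*Lamp1* (chr8:13159069-13159160, plus strand): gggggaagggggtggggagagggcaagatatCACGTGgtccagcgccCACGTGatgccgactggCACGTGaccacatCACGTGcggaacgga
*Gla* (chrX:134601174-134601252, minus strand): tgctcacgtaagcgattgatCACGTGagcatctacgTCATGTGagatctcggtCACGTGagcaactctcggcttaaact
*Glb1* (chr9:114401003-114401062, plus strand): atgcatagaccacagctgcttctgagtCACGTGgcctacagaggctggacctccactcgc
*Gaa* (chr11:119267796-119267855, plus strand): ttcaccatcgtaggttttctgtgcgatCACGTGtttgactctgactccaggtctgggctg

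**Figure D1:**
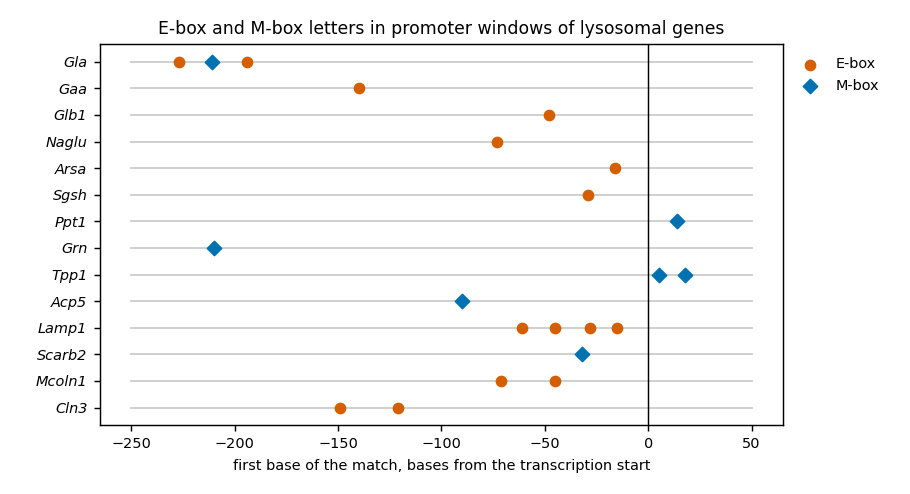
Position of E-box (circles) and M-box (diamonds) letters in the RefSeq promoter windows of the 14 members that held any, in bases from the transcription start. *Lamp1* has 4 E-boxes within the last 61 bases before the start, and the matches of *Gla* lie between 194 and 227 bases before it.

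At BDL day 3, 23 of 40 were more than 1.5-fold above day 0 and 0 were below, where 19.2% of the 12889 genes kept were higher and 29.2% lower. Another 17 passed no fold. The median log2 ratio was 0.91 for the members and -0.02 for all genes kept, and the members' value was 0.47 when the highest library of each gene was taken from the group with the higher mean. At BDL day 14, 24 of 40 were above day 0 past the fold, 1 was below and 15 passed no fold, against 21.2% and 28.8% of the genes kept, and the median log2 ratio was 0.83 against -0.04. Without regard to the fold, 36 members lay above day 0 on the earlier day and 32 on the later one, where 48.8% and 48% of the genes kept did. The members are well expressed (at day 0 their median sat at percentile 88.5 of the genes kept), and highly expressed genes leaned upward as a whole. Among the 7291 genes with a mean of at least 10, 22.9% were higher and 15.0% lower on the earlier day, and 23.4% and 17.4% on the later. Without regard to the fold, 61.3% and 57.2% of these lay above day 0, with median log2 ratios of 0.18 and 0.13. The summed level of the 40 genes went from 6751 normalized counts to 13691 and 14072, or from 0.732% to 1.62% and 1.91% of the summed signal. *Psap* alone made 1300, 2980 and 4850 of these counts, and between the BDL groups it rose by more than the 40 genes together. The signal summed over all genes fell from 843750 to 735604 between the BDL groups, which raises the share.

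The groups were separate for 14 members at BDL day 3, all higher than day 0, where 3.09% of the genes kept and 4.94% of those with a mean of at least 10 were separate and higher and 3.96% of the genes kept were separate and lower. At BDL day 14 they were separate for 16 higher members and 1 lower, against 2.86% and 4.54% of the genes kept, and 4.48% of those with a mean of at least 10 were separate and higher. By the highest library alone, without the geometric mean, the libraries could not overlap for *Lipa* at BDL day 3 (0.147% of the genes kept were higher in this way) and for *Gla* at BDL day 14 (0.101%). Requiring a ratio above 3 SE besides the fold left 19 higher and 0 lower members on the earlier day (5.08% and 6.77% of the genes kept) and 18 higher and 1 lower on the later (6.95% and 9.25%). In this rule, the SE was the largest that the rounding of the listed values allows, which is above the SE printed after ±. Both comparisons use the same day 0 libraries.

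**Figure D2:**
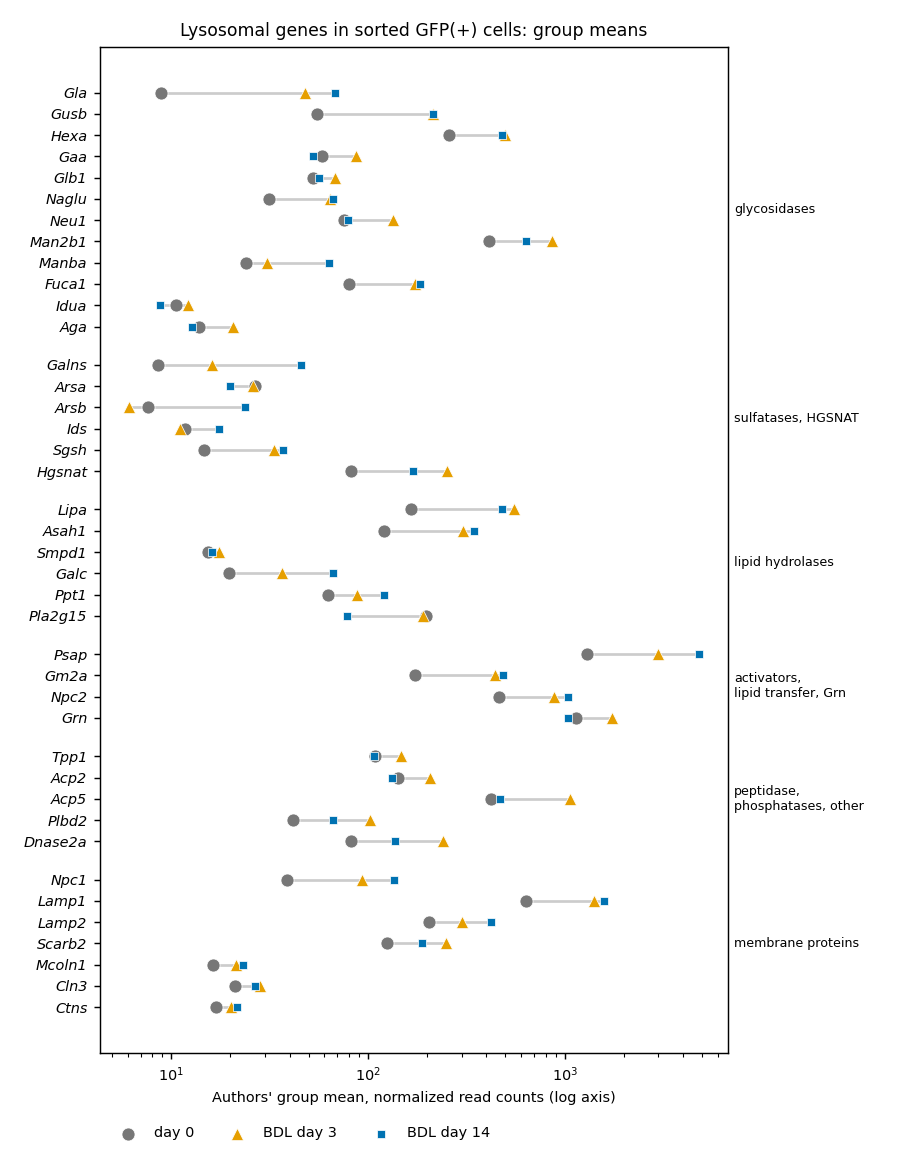
Authors' group means of the 40 genes in normalized read counts on a log axis, by role, for day 0 (circles, n = 3), BDL day 3 (triangles, n = 3) and BDL day 14 (squares, n = 4). Day 0 was the highest group for 2 members, BDL day 3 for 18 and BDL day 14 for 20, where 38.5%, 30.1% and 31.4% of the genes kept had these as their highest group.

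**Figure D3:**
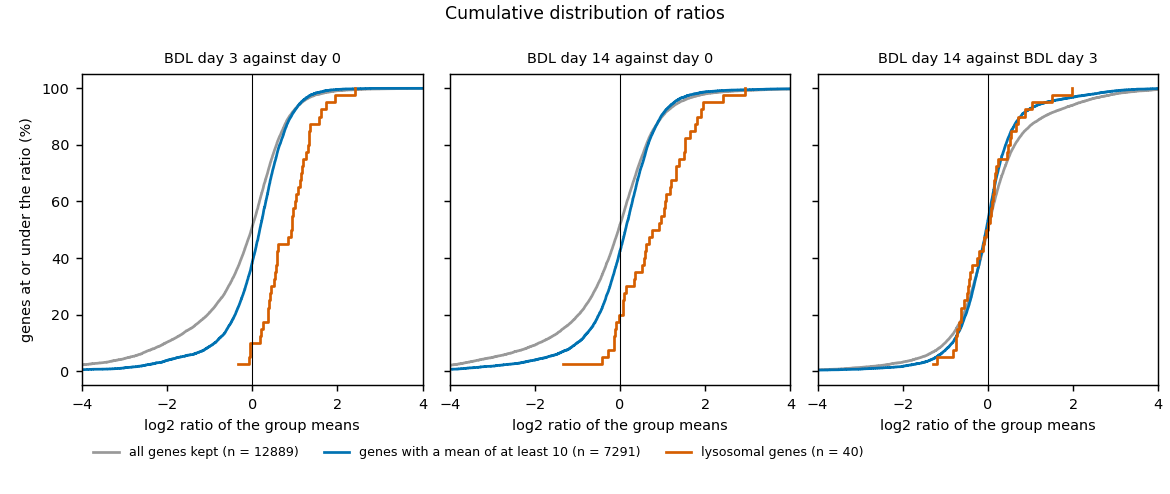
Share of genes at or under each log2 ratio, for the 40 lysosomal genes, all 12889 genes kept and the 7291 with a mean of at least 10. At the median, the lysosomal curve lies to the right of both others against day 0 (0.91 and 0.83). Its largest ratios are 2.43 and 2.93, and some other genes go further, so at the top it lies to their left. Between the BDL groups it crosses 0 at its middle.

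The glycosidases, which remove sugars one by one from glycoproteins, glycolipids and glycosaminoglycans, held the largest ratio of any member at each time, that of *Gla*. Of 12 listed under this role, 7 were higher at BDL day 3 and 7 at BDL day 14. The 12 include *Aga*, whose enzyme cleaves an amide bond and is not itself a glycosidase. Beside this count and that of each role below, 19.2% and 21.2% of the genes kept were higher at these times. The shares of the genes kept that were lower were 29.2% and 28.8%. *Gla*, alpha-galactosidase A, which removes terminal galactose from globotriaosylceramide, lies on chrX:134588149-134601125. Its 3 means were 8.90, 47.8 and 67.9 normalized counts, and its highest library had 74.7. By these rounded values, every BDL day 14 library must hold at least 47.5 counts and no day 0 library more than 26.7. The ratios were 5.37-fold at BDL day 3 (log2 2.43 ± 0.22) and 7.63-fold at BDL day 14 (log2 2.93 ± 0.21), and its rank among the genes kept went from 7885 to 2157 and 1397. *Gusb*, beta-glucuronidase (chr5:129989011-130003049), stood at 55.2, 213 and 214 normalized counts. It had the smallest SD of the members, 0.12 on the log2 scale, and its log2 ratio was 1.95 at both times, with an SE of 0.09. Because the table rounds its values, this SD could be as large as 0.21 and the SE 0.17. Its groups were separate from day 0 at both times.

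The same pattern, higher at both times with little between the BDL groups, held for 4 more glycosidases. *Fuca1*, the alpha-fucosidase, went from 80.4 to 174 and 184 normalized counts. *Naglu*, which acts on heparan sulfate, went from 31.5 to 64.3 and 66.1. *Hexa*, the alpha subunit of beta-hexosaminidase, went from 257 to 496 and 481. These 3 had separate groups at both times. *Man2b1*, lysosomal alpha-mannosidase, went from 413 to 866 and 633, and its log2 ratio was 1.07 ± 0.32 and then 0.62 ± 0.30, so at BDL day 14 it was 1.53-fold and close to the threshold.

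*Neu1* and *Manba* differed in time. *Neu1*, the sialidase, had 75.2, 134 and 79.3 normalized counts, and its BDL day 3 libraries were separate from both other groups. *Manba*, beta-mannosidase, had 24.0, 30.8 and 63.1, and its BDL day 14 libraries were separate from both others. The remaining 4 listed under this role did not pass the fold at either time against day 0. *Gaa*, which degrades glycogen, had 58.2, 87.2 and 52.3 with an SD of 0.71 (log2), and its BDL day 3 ratio of 1.498 lay just under the threshold, as did that of *Aga*, aspartylglucosaminidase, at 1.49 (13.8, 20.6 and 12.8). The beta-galactosidase *Glb1* had 52.7, 67.7 and 56.3. *Idua*, the iduronidase, had 10.6, 12.2 and 8.74.

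Enzymes that act on sulfated glycans were mixed. Of 6, 3 were higher at BDL day 3 and 4 at BDL day 14. *Hgsnat*, a membrane enzyme that acetylates heparan sulfate from the cytosolic side, had 82.0, 252 and 170 normalized counts. Its groups were separate from day 0 at both times (log2 1.62 ± 0.14 and 1.05 ± 0.13). *Galns*, which desulfates keratan sulfate, had 8.52, 16.2 and 45.8, and its BDL day 14 group, which held its highest library of 59.9, was separate from day 0 (log2 2.43 ± 0.43). *Sgsh*, the sulfamidase, had 14.7, 33.3 and 36.8, and *Arsb*, the arylsulfatase of dermatan sulfate, had 7.59, 6.07 and 23.7. Both spread widely (SD 0.79 and 0.78, log2), and in neither were the groups separate. *Ids*, which desulfates iduronate, had 11.7, 11.1 and 17.4, a BDL day 14 ratio of 1.49 that falls just short of the threshold. *Arsa*, which desulfates sulfatide, had 26.8, 25.9 and 20 and passed no fold.

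Among the 6 lipid hydrolases, 3 were higher at BDL day 3 and 4 were higher and 1 lower at BDL day 14. *Lipa*, lysosomal acid lipase, which frees cholesterol from its esters (chr19:34492318-34527474), had 166, 554 and 480 normalized counts and a highest library of 579. By the rounded values, no BDL day 3 library can be under 504 and no day 0 library above 498. Rounding narrows this gap without closing it, and group means 5 percent nearer close it. The log2 ratios of *Lipa* were 1.74 ± 0.19 and 1.53 ± 0.18. *Asah1*, acid ceramidase, had 121, 305 and 346, and its groups were separate from day 0 at both times. *Galc*, the galactosylceramidase, had 19.6, 36.6 and 66.8, with separate groups at BDL day 14. *Ppt1*, a thioesterase that removes palmitate from proteins, had 62.3, 88.3 and 121 and was 1.94-fold higher at BDL day 14. *Smpd1*, acid sphingomyelinase, stayed at 15.4, 17.4 and 16.1 with a wide SD of 0.63.

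*Pla2g15*, lysosomal phospholipase A2, was the 1 member more than 1.5-fold below day 0. It lies on chr8:106150399-106164715. Its means were 197, 191 and 78.1 normalized counts, and the highest library had 244. The BDL day 14 log2 ratio was -1.33 ± 0.27 against day 0 and -1.29 ± 0.27 against BDL day 3, and the BDL day 14 libraries were separate from those of day 0. Between the BDL groups the ratio was above 3 SE but the libraries could overlap.

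The proteins that help hydrolases reach their lipids, the lipid carrier NPC2 and progranulin form a group of 4. All 4 were higher at BDL day 3 and 3 at BDL day 14. *Psap*, the precursor of the saposins (chr10:60277627-60302597), had means of 1300, 2980 and 4850 normalized counts, with a highest library of 6250. Per kilobase of exon it had the highest level of the members in each group, 474, 1086 and 1767 normalized counts, and its rank among all genes kept moved from 54 to 33 and 10. The *Psap* log2 ratio was 1.20 ± 0.34 at BDL day 3, where libraries of the groups could overlap, and 1.90 ± 0.32 at BDL day 14, where they were separate. *Gm2a*, the activator of ganglioside GM2 breakdown, had 173, 442 and 487. *Npc2*, which binds cholesterol in the lumen, had 463, 884 and 1040. Both were separate from day 0 at both times. *Grn*, progranulin, which is cleaved into granulins in the lysosome, had 1140, 1740 and 1040, a BDL day 3 ratio of 1.53 that sat just above the threshold with an SE of 0.39 on the log2 scale.

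Of the 5 other lumenal proteins, 3 were higher at BDL day 3 and 2 at BDL day 14. *Acp5*, an acid phosphatase of macrophages and osteoclasts, had 424, 1070 and 467 normalized counts, and its BDL day 3 libraries were separate from both other groups. *Dnase2a*, which degrades DNA from engulfed cells, had 81.7, 242 and 137 and was separate from day 0 at BDL day 3. *Plbd2*, a phospholipase B-like protein, had 41.5, 103 and 66.6 with an SD of 0.68. *Tpp1*, a tripeptidyl peptidase, had 109, 148 and 107, and *Acp2*, another acid phosphatase, had 142, 207 and 133. Neither of these 2 passed the fold against day 0.

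Of the 7 membrane proteins, 3 were higher at BDL day 3 and 4 at BDL day 14. *Lamp1*, a main glycoprotein of the lysosomal membrane (chr8:13159161-13175338), had 640, 1410 and 1590 normalized counts, and its groups were separate from day 0 at both times (log2 1.14 ± 0.16 and 1.31 ± 0.15). *Lamp2*, its relative with a role in autophagy, had 205, 301 and 420 and passed the fold at BDL day 14 alone. *Npc1*, which passes cholesterol out of the lysosome, had 38.9, 93.3 and 135 and was separate from day 0 at BDL day 14 (log2 1.80 ± 0.30). *Scarb2*, the carrier of glucocerebrosidase, had 125, 250 and 188, and a later log2 ratio of 0.59 ± 0.21, the closest of the called members to the threshold. The channel *Mcoln1* had 16.3, 21.4 and 23.1. *Cln3* had 21.1, 28.3 and 26.6, and the cystine exporter *Ctns* had 16.9, 20.2 and 21.5. These last 3 did not pass the fold at either time.

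**Figure D4:**
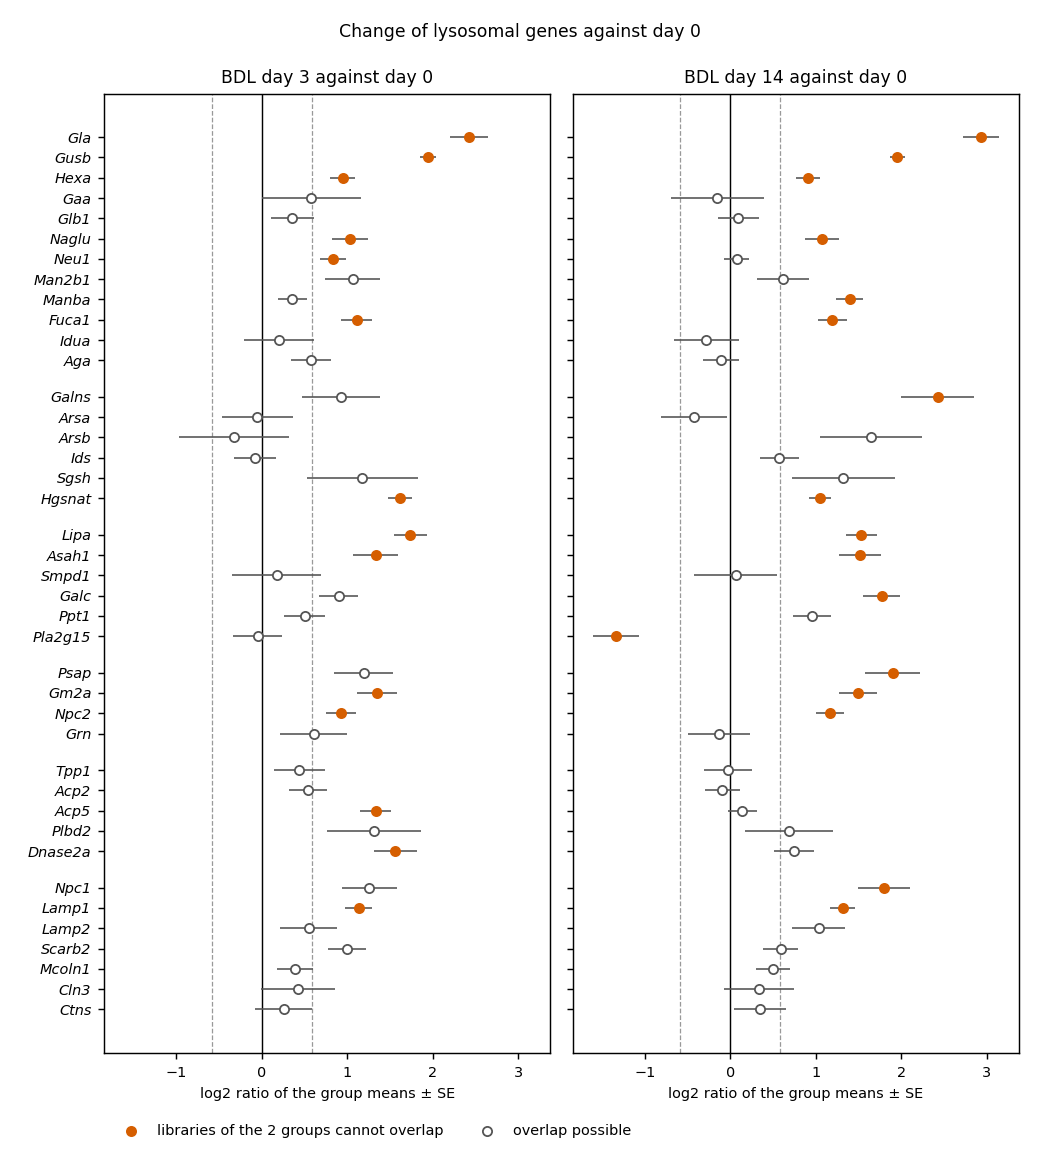
Log2 ratio of the group means (points) with its SE (bars) for each member against day 0, at BDL day 3 and BDL day 14, with dashed lines at 1.5-fold. Filled points are genes whose libraries cannot overlap between the groups, 14 at BDL day 3 and 17 at BDL day 14, of which *Pla2g15* alone was lower.

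Between the BDL groups the members did not move one way. From BDL day 3 to BDL day 14, 6 were higher and 9 lower, where 21.2% and 19.7% of the genes kept were, and the median log2 ratio was -0.02. Groups were separate for *Manba*, which was higher (1.39% of the genes kept), and for *Neu1* and *Acp5*, which were lower (2.43%). With a ratio above 3 SE, by the same largest SE, the counts were 4 higher and 4 lower (5.13% and 5.06%). Removing the highest library of each gene from the group with the higher mean, the least favourable case, left 4 lower, and the 5 lost were *Acp2*, *Aga*, *Gaa*, *Grn* and *Plbd2*.

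Over the 3 groups, 15 members were higher at both times without a fold above 1.5 between the BDL groups, a pattern of 8.46% of the genes kept. Another 3, *Galns*, *Galc* and *Psap*, were higher again at BDL day 14 than at BDL day 3 (1.74% of the genes kept). *Neu1*, *Grn* and *Acp5* were past the fold at BDL day 3 only and then lower (3.68%). In the least favourable case without the highest library, *Psap* lost its call between the BDL groups and its call at BDL day 3, and *Grn* lost both of its calls. Calls against day 0 were also lost for *Galc*, *Npc1*, *Npc2* and *Sgsh* at BDL day 3. At BDL day 14 they were lost for *Dnase2a*, *Man2b1*, *Plbd2* and *Scarb2*. Other members became higher than day 0 in this case, *Ids* at BDL day 3 and *Acp2*, *Gaa* and *Grn* at BDL day 14. A group of 8 passed no fold in any comparison, a pattern of 30.6% of the genes kept: *Glb1*, *Idua*, *Arsa*, *Smpd1*, *Tpp1*, *Mcoln1*, *Cln3* and *Ctns*. Members with and without E-box letters were both among those that changed. Of the 9 members with CACGTG, 4 passed the fold against day 0 at either time, with a median log2 ratio of 0.58 at BDL day 3, and of the 25 with a window without it, 19 did, with a median of 0.83. For the M-box letters, 5 of 6 members with them passed, and 18 of 28 without. The median log2 ratio at BDL day 3 was 0.805 with them and 0.708 without, and at BDL day 14 it was 0.364 with them and 0.825 without. Passing was counted in either direction at either time, a rule that most genes kept also met. Those that did not meet it were 2.45%, 30.6% and 1.65% of the genes kept. In these 3 sets, BDL day 14 was lower than, within the fold of or higher than BDL day 3.

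Other genes of the lysosome were followed on lists beside the members. For each list, the shares of all genes kept stand as above, with 19.2% higher and 29.2% lower on the earlier day and 21.2% and 28.8% on the later. Of 18 other hydrolases and cofactors, 11 were higher and 1 lower at BDL day 3, and 7 higher and 0 lower at BDL day 14. *Sumf1*, which activates the sulfatases, had 21.4, 42.7 and 51.7 normalized counts and was separate from day 0 at both times. *Pcyox1*, an enzyme of prenylcysteine breakdown, had 70.1, 166 and 102. *Scpep1*, a serine carboxypeptidase, had 63.2, 114 and 149. Of 19 other membrane proteins, 7 were higher and 1 lower on the earlier day, and 9 were higher and 1 lower on the later. *Cd63*, a tetraspanin, had 33.9, 54.3 and 338, a BDL day 14 log2 ratio of 3.32 ± 0.20. *Tmem192* had 10.3, 32.5 and 36.5, and *Slc29a3*, a nucleoside transporter, had 15.7, 19.6 and 43.5. *Ostm1*, the beta subunit of the chloride exchanger CLC-7, had 22.3, 40.0 and 51.5, and *Slc36a1*, an amino acid transporter, had 12.1, 10.5 and 27.5.

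Of 18 genes that deliver enzymes to the lysosome, 4 were higher and 1 lower at BDL day 3, and 6 higher and 1 lower at BDL day 14. The 4 of 18 was close to the 19.2% of all genes kept. *M6pr*, the cation-dependent mannose 6-phosphate receptor, had 131, 275 and 257 normalized counts, and *Igf2r*, the larger receptor, had 19.4, 37.0 and 14.9. *Gnptab*, which starts the mannose 6-phosphate tag, had 8.81, 14.7 and 28.6 and was separate from day 0 at BDL day 14. *Sort1*, sortilin, had 15.0, 4.93 and 40.7, and its relative *Sorl1* had 16.7, 13.3 and 39.1. Of 7 genes for the MiT/TFE factors and their regulators, 1 was higher at BDL day 3, no larger a share than the 19.2% of all genes kept, and 3 were higher and 1 lower at BDL day 14. *Fnip2*, a folliculin partner, had 6.62, 30.3 and 58.5, *Fnip1* had 16.0, 17.9 and 32.5, and *Tfec* was the lower one (78.6, 62.1 and 35.7). *Tfeb* stayed at 22.6, 24.5 and 21.6 and *Tfe3* at 36.5, 52 and 42.0, 2 genes named although they passed no fold. These are mRNA levels, and the activity of these factors is set largely by where the protein sits in the cell.

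Markers of cell types moved between the groups as well. Of all genes kept, 19.2% were higher and 29.2% lower on the earlier day, and 21.2% and 28.8% on the later. These shares stand beside the counts of each marker list. Cells were sorted as *Prom1* progeny, and the markers of bile duct cells were followed in them. *Prom1* itself had 6.66, 0.956 and 1.76 normalized counts, *Krt19* 21.5, 12.7 and 14.3, *Epcam* 12.9, 4.97 and 7.69, *Sox9* 4.26, 1.18 and 0.85, and *Cldn4* 2.21, 3.21 and 6.20. The median over all genes kept was 12.8, 11.5 and 11.9. Of the 10 markers 8 passed the filter, and 0 of these were higher and 7 lower at BDL day 3, while 2 were higher and 5 lower at BDL day 14. Most of the summed level of the 10 cholangiocyte markers (527, 206 and 836) was *Spp1* (459, 175 and 792). The 9 macrophage markers summed to 5232, 9304 and 14237, of which *Lyz2*, lysozyme, made 2280, 4560 and 11200. At BDL day 3, 6 of the 9 were higher and 0 lower, and at BDL day 14 1 was higher and 0 lower, with median log2 ratios of 0.68 and 0.13. The 1 of 9 was no larger a share than the 21.2% of all genes kept. The 5 Kupffer cell markers summed to 9212, 20869 and 1278, with 4 higher at BDL day 3 and 5 lower at BDL day 14. The 6 markers of recruited macrophages summed to 118, 243 and 1865. Of these, 3 were higher and 1 lower at BDL day 3, and 5 higher and 1 lower at BDL day 14. *Ly6c2* was the lower one at both times (21.9, 8.19 and 6.69). *Ccr2* (15.3, 12.2 and 161) and *Cx3cr1* (11.7, 9.06 and 285) also lay under day 0 at BDL day 3, without passing the fold. Most of the BDL day 3 sum was *Itgam* (99.5) and *Chil3* (90.4). The summed level of the 40 lysosomal genes was 1.29, 1.47 and 0.988 times that of the macrophage markers in the 3 groups, and 2.29, 2.89 and 4.63 times when *Lyz2* was left out. The direction from BDL day 3 to BDL day 14 thus turned on *Lyz2*.

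Markers of other cells were mostly lower after BDL. Hepatocyte markers summed to 3465, 912 and 361 normalized counts, mesenchymal markers to 1312, 29.8 and 123, and erythroid markers to 69420, 7369 and 4268. Sinusoidal endothelial markers summed to 784, 281 and 859. Neutrophil markers summed to 466, 208 and 126, T and NK cell markers to 93.4, 35.9 and 10.4, and B cell markers to 180, 49.1 and 21.3. The part of these shifts in the lysosomal ratios was not tested. In sorted bulk RNA, fewer cells of a type and less RNA per cell cannot be told apart.

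**Figure D5:**
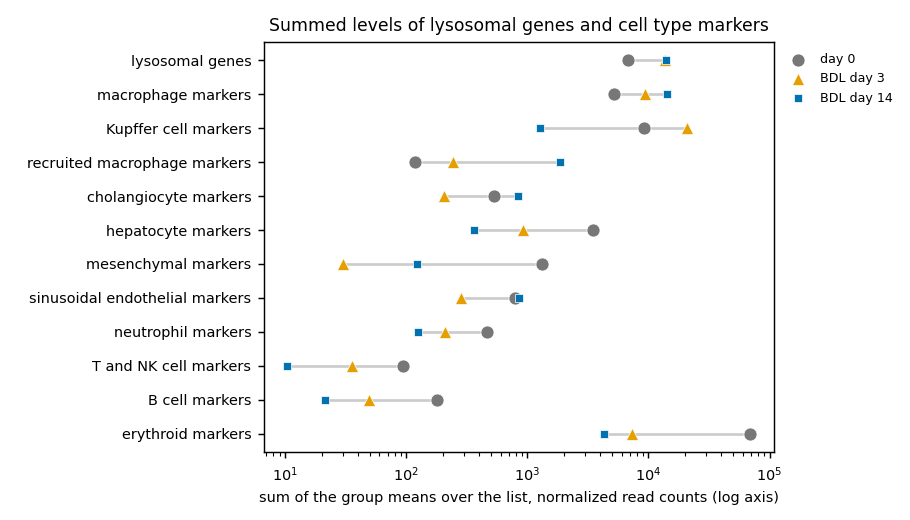
Sum of the authors' group means over the 40 lysosomal genes and over each list of cell type markers, in normalized read counts on a log axis, for day 0 (circles), BDL day 3 (triangles) and BDL day 14 (squares). Kupffer cell markers went from 9212 to 20869 and 1278, and the lysosomal genes from 6751 to 13691 and 14072.

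Some members share exon sequence with a gene on the other strand, and whether reads were counted by strand is not given in the sources used here. The largest shares were 32.3% of the exon bases of *Arsb*, 29.99% of *Dnase2a* and 21.6% of *Sgsh*. *Ppt1* shared 3.51% of its bases with *Cap1*, whose mean over all libraries was 390 normalized counts against 93.5 for *Ppt1*, and *Cln3* shared 7.65% with *Apobr* (28.5 against 25.5).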

How the data were processed

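RNA of sorted GFP(+) cells was sequenced as poly(A) mRNA libraries. In Partek Flow, the authors trimmed reads, ran STAR against mm10 (2.6.1d in the submitters' processing notes), counted over GENCODE M18 genes and applied upper quartile normalization. The deposited signal values are a least squares mean per group of these normalized counts, with the total, highest, geometric mean and arithmetic mean over 10 libraries. No column holds a single library. The table also holds the authors' own comparisons (p-values, FDR, ratios, fold changes and limits), which were not used.

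Here, 2 repeated symbols were dropped and genes with a summed count of at least 10 were kept (12889). Weighted by 3, 3 and 4 libraries, the group means gave back the arithmetic mean within rounding for every gene. The SD, the 3 SE rule and the bound from the geometric mean were chosen after seeing the data. On simulated data with a true SD of 0.2, the derived SD was compared with the SD of the drawn libraries themselves. The median ratio was 0.999 (5th to 95th percentile 0.645 to 1.25). This range leaves out how far an SD of 10 libraries strays from the true one. The bound made 0 false calls on the simulated data, which its definition requires, so this count is no check of it. These data were drawn with 1 true SD at a time, and the assumption of 1 SD for all groups was not tested. The paper reports more variable replicates at BDL day 14 than at day 0. For BDL day 3, the 3 SE rule called 2, 119 and 229 unchanged genes at SDs of 0.2, 0.4 and 0.8, among 12889 simulated. The members and all lists were chosen with earlier results of these data known. All members are named. Of the other lysosomal lists, up to 5 genes past 2-fold with a mean of at least 10 are named, largest fold first, besides *Tfeb* and *Tfe3*. Some genes that this rule picks are not reported here. Positions follow the table and matched GENCODE M21 on GRCm38 for all 40 members. Numpy 2.4.6 and pandas 2.3.3 were used. A planned count of glycosylation sites in the proteins was not run.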

Additional observations from a re-analysis of the deposited data

How the results depend on the processing

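Of 84 values recomputed, 70 stayed within 1.5 times the count, or within the members' median SD (0.30) of the median log2 ratio, under no filter, a mean of at least 10, a pseudocount of 1, median-ratio scaling, quantile normalization, a 2-fold threshold, group means taken 5 percent nearer, the highest library left out of the higher group, and 3 SE. The exceptions follow. At BDL day 3 against day 0, the median log2 ratio of the members was 0.61 after quantile normalization and 0.47 without the highest library, and 1 member (*Manba*) was then lower. This case cannot hold for *Manba*, because its BDL day 14 libraries were separate from and above both other groups and so include its highest library. Members whose libraries cannot overlap by the highest library were 0 after quantile normalization and with group means 5 percent nearer. The geometric mean bound, added after seeing the data, gave 14, 17 and 3 at BDL day 3, BDL day 14 and between them, in place of 1, 1 and 0. At BDL day 14 against day 0, 2 members were lower without the highest library (*Acp5* besides *Pla2g15*). For *Acp5* this case cannot hold either, because its BDL day 3 libraries were separate from and above both other groups. Between the BDL groups, the median of -0.02 was 0.09 after quantile normalization, with 9 members higher, and 4 were higher without the highest library, against 6. These values stayed within the limits and are no exceptions. The exceptions between the BDL groups were 3 members higher at 2-fold, and lower members that numbered 5 after quantile normalization, 2 at 2-fold, 4 without the highest library and 4 with 3 SE. The causes were not tested. Quantile normalization moved the median of all genes kept to 0.12 at BDL day 3, and 3439 genes were then higher and 2712 lower, where 2474 and 3760 were so as reported. No paired analysis was possible because the table holds no value for a single library. For the same reason no replicate could be left out by name, and depth is unknown. The smallest exact permutation p would have been 0.1 for 3 against 3 and 0.0571 for 4 against 3 libraries.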

Other observations

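The members are spread unevenly over the genome. Chromosome 8 holds 9 of the 40 (22.5%), where 5.33% of the genes kept lie on it, and chromosome 11 holds 6 (15.0% against 8.32%). The 9 on chromosome 8 are *Man2b1*, *Aga*, *Galns*, *Hgsnat*, *Asah1*, *Pla2g15*, *Dnase2a*, *Lamp1* and *Mcoln1*, and they include the 1 member that was lower at BDL day 14.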
